A study of Homo sapiens with 12 samples.

Results

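The 42 protein-coding genes described here are the 39 HOX genes of the 4 human HOX clusters (11 HOXA, 10 HOXB, 9 HOXC and 9 HOXD genes) and the 3 MEIS genes. They were chosen by symbol, with earlier results of these data known, out of 48162 gene IDs counted in each library. RNA was sequenced from 12 libraries of IMR90, a normal human lung fibroblast line, in 4 groups of 3, in a study that asked how the histone methyltransferase DOT1L acts on the secretory program of senescent cells. RAS/shDOT1L cells received HRAS carrying the G12V change (pBABE-HRASG12V) together with a hairpin against DOT1L in pLKO.1, RAS cells received pBABE-HRASG12V, DOT1L OE cells received the MSCB-hDot1lwt overexpression vector, and control cells received the pBABE-Control vector. All cells grew in 2% oxygen and were selected for 4 days, with 1 µg/mL blasticidin in DOT1L OE and 3 µg/mL puromycin in RAS/shDOT1L, RAS and control. The labels name no control hairpin for RAS cells and 1 hairpin for RAS/shDOT1L cells, and DOT1L OE differs from control in vector and drug as well as in DOT1L, which cannot be told apart.

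HOX genes encode homeodomain transcription factors that fix the position of a cell along the body axis. They lie in clusters, and a gene's place in its cluster, given by its paralog number, follows the order in which the genes are switched on from head to tail. MEIS proteins are homeodomain cofactors of the TALE class that bind DNA together with HOX and PBX proteins. DOT1L methylates lysine 79 of histone H3 in transcribed genes, and in leukemias with a rearranged MLL gene it keeps HOXA9, HOXA10 and MEIS1 on, whereas adult fibroblasts carry a HOX pattern that reflects the site they came from.

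Library totals ran from 16128055 to 19503457 counts. Levels are given as CPM (counts per 1000000 counts of a library) after TMM scaling, which adjusts library totals so that most genes do not move. DOT1L stood at 11.0 ± 0.644 CPM in RAS/shDOT1L, 84.5 ± 3.42 in RAS, 202 ± 9.19 in DOT1L OE and 31.7 ± 2.33 in control (mean ± SD, n = 3 libraries each). HRAS stood at 275 ± 13.0 CPM in RAS/shDOT1L, 503 ± 10.0 in RAS, 79.4 ± 5.46 in DOT1L OE and 85.9 ± 2.82 in control, so HRAS counts, which hold the transgene and the native gene together, differed by 1.80-fold, with the lower value in RAS/shDOT1L (adjusted p = 3.87e-16, edgeR).

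Markers of cell types differed between the groups. The 12 fibroblast markers, all expressed, summed to 18507 to 19252 CPM in RAS/shDOT1L, 18328 to 18774 in RAS, 17217 to 18029 in DOT1L OE and 24694 to 25075 in control. The 8 epithelial markers summed to 348 to 371 CPM in RAS/shDOT1L, 103 to 113 in RAS, 141 to 149 in DOT1L OE and 259 to 279 in control, with group means of EPCAM from 0.269 to 1.03 CPM and of CDH1 from 0 to 0.344. Of 6 endothelial markers, 5 were measured and summed to 25.8 to 31.9, 64.6 to 67.9, 134 to 147 and 63.9 to 70.0 CPM in the same order of groups, with CDH5 at 0 in RAS, DOT1L OE and control and at 0.106 in RAS/shDOT1L. The 8 blood cell markers summed to 3.64 to 5.09, 2.86 to 4.47, 1.33 to 1.45 and 1.41 to 1.70 CPM, with CD68 and ITGAM at 0 counts and PTPRC, which marks white blood cells, at 0 to 0.174 CPM over the groups. HBB, a hemoglobin gene of that list, averaged 2.59 CPM in RAS/shDOT1L, 0.962 in RAS, 0.0156 in DOT1L OE and 0 in control.

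These fibroblasts expressed the anterior and middle part of the HOX code, and most of it came from the HOXB cluster. Of the 42 genes, 9 had no count in any library, 17 were expressed well enough to be tested in at least 1 comparison and 14 in all 4. The genes tested in all 4 included HOXA2, HOXA3, HOXA5, HOXB2 to HOXB8 and the 3 MEIS genes, while HOXA4, HOXA7 and HOXC6 could be tested only in DOT1L OE against control. HOXB genes (chromosome 17, 48528526 to 48728750 in GRCh38) held 94.3% of all HOX counts. The 16 HOX genes with paralog numbers 9 to 13 included 6 without a count, none was tested, and none had more than 9 counts in a library or 20 counts over the 12 libraries.

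**Figure D1:**
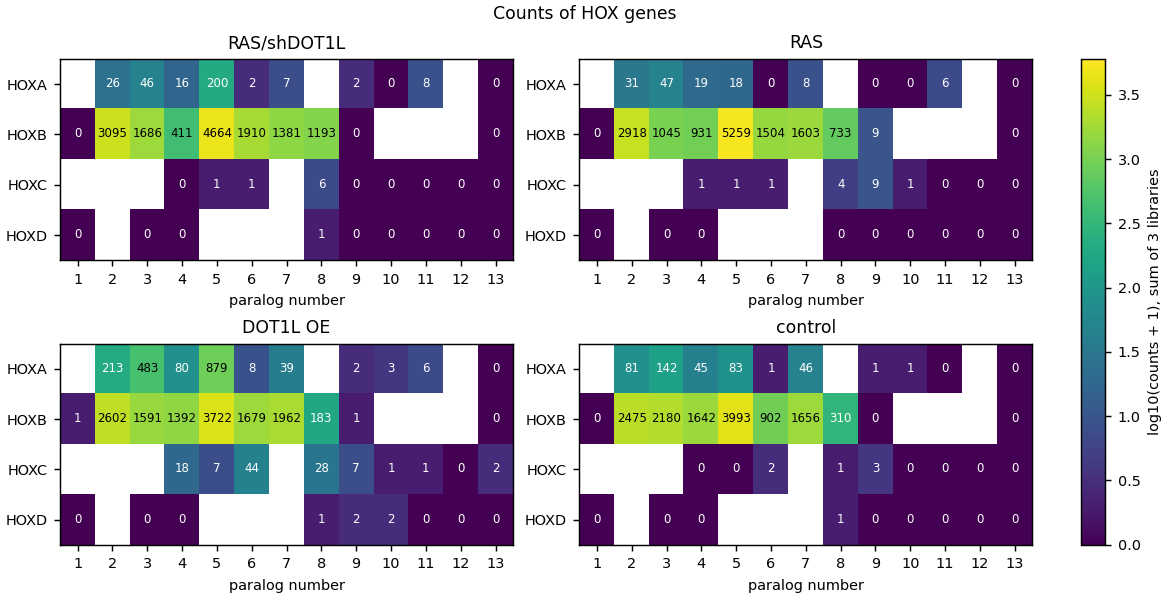
Counts of HOX genes, summed over the 3 libraries of each group, by cluster (rows) and paralog number (columns); colour is log10(counts + 1) and white cells are paralogs that a cluster lacks or that are not shown. The HOXB row from paralog 2 to paralog 8 held between 183 and 5259 counts in every group, while each gene of paralogs 9 to 13 held at most 9 counts in any group.

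The leukemia genes HOXA9 and HOXA10 were near the limit of detection in all groups. HOXA9 had 0, 2 and 0 counts in RAS/shDOT1L, 0 counts in each RAS library, 1, 0 and 1 in DOT1L OE, and 0, 1 and 0 in control. HOXA10 had no count in RAS/shDOT1L or RAS, 1, 2 and 0 counts in DOT1L OE, and 0, 1 and 0 in control. A count of 0 allows up to 3 counts, which is 0.154 to 0.186 library-size CPM at these depths and covers counting error only, so no difference in either gene was detectable.

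Per kilobase of exon, HOXB5 was the highest of the 42 genes in every group, at 53.3 CPM per kb in RAS/shDOT1L, 57.7 in RAS, 32.4 in DOT1L OE and 37.1 in control. HOXB2 came next in RAS/shDOT1L and RAS, at 26.7 and 24.3 CPM per kb, whereas HOXB7 came next in DOT1L OE and control, at 20.9 and 18.8. HOXA5 stood at 2.47 CPM per kb in RAS/shDOT1L, 0.214 in RAS, 8.32 in DOT1L OE and 0.830 in control. Summed over a cluster, HOXA levels were 11.4 ± 0.514 CPM in RAS/shDOT1L, 3.91 ± 0.931 in RAS, 29.8 ± 0.922 in DOT1L OE and 9.90 ± 1.32 in control, so the HOXA total moved over a wide range. HOXB sums were 304 ± 11.6 CPM in RAS/shDOT1L, 286 ± 8.29 in RAS, 213 ± 16.0 in DOT1L OE and 228 ± 12.6 in control, a narrow range by comparison. Because these are bulk libraries, fewer cells with a message and less message per cell cannot be told apart.

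HOXA genes (chromosome 7, 27092993 to 27200091, minus strand) held the gene with the widest range of group means among those tested in all 4 comparisons, HOXA5, whose highest mean was 38.9 times the lowest. HOXA5 (ENSG00000106004), which is needed for lung morphogenesis in mice, had 5.15, 3.89 and 3.72 CPM in RAS/shDOT1L, 0.536, 0.121 and 0.447 in RAS, 14.8, 13.1 and 15.0 in DOT1L OE, and 1.81, 0.970 and 1.51 in control. Each group's libraries stood apart from those of the other 3 groups, and the RAS values rest on 9, 2 and 7 counts. HOXA5 shares no exon with another annotated gene.

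HOXA3 (ENSG00000105997), needed in mice for the thymus and parathyroid, had 0.196, 0.815 and 1.89 CPM in RAS/shDOT1L, 1.07, 1.39 and 0.383 in RAS, 7.25, 8.45 and 7.77 in DOT1L OE, and 2.17, 3.23 and 2.01 in control. HOXA2 (ENSG00000105996), which patterns the hindbrain and branchial arches, had 0.326, 0.690 and 0.631 CPM in RAS/shDOT1L, 1.25, 0.303 and 0.319 in RAS, 4.32, 3.78 and 2.39 in DOT1L OE, and 1.14, 1.78 and 1.31 in control. For both genes the DOT1L OE libraries lay above all 9 others, and RAS/shDOT1L and RAS overlapped. Of the exon bases of HOXA3, 17.3% overlap the antisense genes HOXA-AS2 and HOXA-AS3. The strand setting of the counting is not given in the sources used here, so reads of such pairs cannot be told apart.

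**Figure D2:**
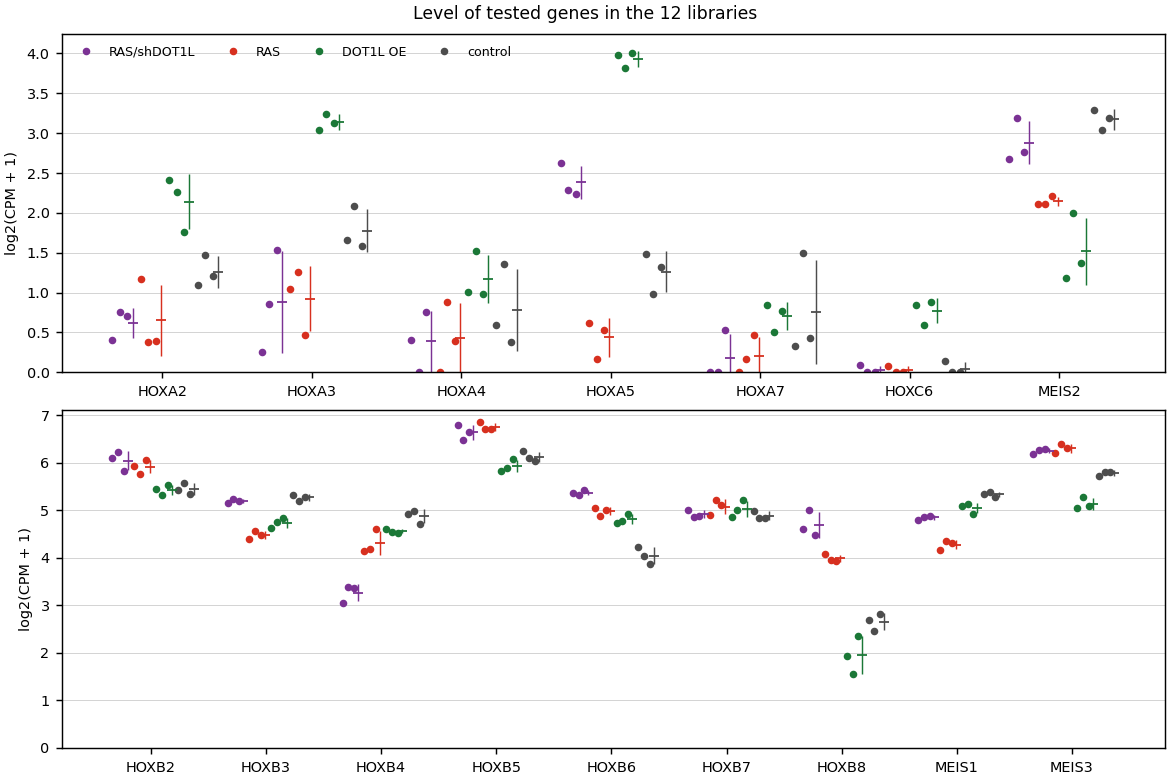
Level of the tested genes shown, in every library, as log2(CPM + 1), with the groups from left to right RAS/shDOT1L, RAS, DOT1L OE and control; points are libraries, and the dash with its bar is the mean ± SD of 3. HOXA2, HOXA3, HOXA5 and HOXC6 had their highest libraries in DOT1L OE, while HOXB5 stood higher in all 6 RAS/shDOT1L and RAS libraries than in the 6 others.

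The bases just upstream of HOXA2 and HOXA3 are shown because both genes were higher in DOT1L OE and because HOXA2 holds binding motifs of the protein families described here. Sequences are from RefSeq (GRCh38.p14), each the 250 bases before the annotated start listed first for the gene, on the minus strand. Any other starts of these genes were not searched. They span chr7:27102684-27102933 for HOXA2 and chr7:27152584-27152833 for HOXA3. Capitals mark the MEIS motif TGACAG and the PBX-HOX motif TGATNNAT, searched on both strands, and the 2 matches in HOXA2 do not overlap.
HOXA2: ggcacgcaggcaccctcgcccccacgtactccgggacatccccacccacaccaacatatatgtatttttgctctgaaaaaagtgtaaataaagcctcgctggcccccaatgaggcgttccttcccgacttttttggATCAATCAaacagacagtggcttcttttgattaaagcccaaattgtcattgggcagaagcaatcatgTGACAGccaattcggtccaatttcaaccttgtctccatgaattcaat
HOXA3: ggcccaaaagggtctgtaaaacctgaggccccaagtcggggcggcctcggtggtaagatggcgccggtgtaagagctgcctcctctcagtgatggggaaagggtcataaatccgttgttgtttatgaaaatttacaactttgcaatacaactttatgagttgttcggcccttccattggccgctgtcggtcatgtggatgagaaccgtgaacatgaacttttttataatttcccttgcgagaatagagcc
In HOXA2 the PBX-HOX match begins 114 bases and the MEIS match 47 bases before the start, and the HOXA3 window has neither. Of the 42 genes, 23 matched an entry of the RefSeq promoter table, 7 of them among the 17 tested genes. The MEIS motif was found in 2 of the 23 (HOXA2 and HOXA4) and in 13.0% of all 35116 promoter windows, and the PBX-HOX motif in 3 of the 23 (HOXA2, HOXB1 and HOXD11) and in 6.47% of all windows. The windows of the 23 genes held a median of 20 CpG dinucleotides, and all windows a median of 11.

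HOXB genes of paralog numbers 2 to 8 were expressed in every group. HOXB8 (ENSG00000120068), which can hold mouse myeloid progenitors in a dividing state, had 23.2, 31.2 and 21.4 CPM in RAS/shDOT1L, 15.9, 14.6 and 14.4 in RAS, 2.83, 1.96 and 4.12 in DOT1L OE, and 5.47, 4.53 and 6.03 in control. The 4 groups did not overlap. HOXB4 (ENSG00000182742), known for expanding blood stem cells, had 7.30, 9.47 and 9.34 CPM in RAS/shDOT1L, 16.8, 17.2 and 23.3 in RAS, 23.6, 22.3 and 22.1 in DOT1L OE, and 29.4, 30.7 and 25.2 in control. RAS/shDOT1L lay below all other libraries and control above them, while RAS and DOT1L OE overlapped.

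HOXB6 (ENSG00000108511) had 40.3, 39.0 and 42.3 CPM in RAS/shDOT1L, 32.3, 28.6 and 31.3 in RAS, 25.6, 26.6 and 29.5 in DOT1L OE, and 17.7, 15.5 and 13.6 in control. HOXB3 (ENSG00000120093) had 34.5, 37.0 and 35.8 CPM in RAS/shDOT1L, 20.1, 22.5 and 21.4 in RAS, 23.7, 26.0 and 27.6 in DOT1L OE, and 39.3, 35.7 and 38.0 in control. Control held the lowest HOXB6 and, with RAS/shDOT1L, the highest HOXB3. Of HOXB6 exon bases, 32.9% overlap HOXB3 or the antisense gene HOXB-AS3, so counts of these genes are uncertain to that extent.

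HOXB5 (ENSG00000120075), which acts in lung branching in mice, had 110, 88.1 and 99.0 CPM in RAS/shDOT1L, 114, 104 and 104 in RAS, 55.7, 58.5 and 66.7 in DOT1L OE, and 74.9, 67.4 and 64.9 in control. HOXB2 (ENSG00000173917), a hindbrain gene, had 67.8, 73.7 and 55.4 CPM in RAS/shDOT1L, 60.0, 53.8 and 65.3 in RAS, 42.5, 39.0 and 45.3 in DOT1L OE, and 42.2, 47.0 and 39.5 in control. For both genes all libraries with HRAS G12V lay above all libraries without it. HOXB7 averaged 28.6 to 32.8 CPM over the 4 groups and passed the test in none of the 4 comparisons, the smallest adjusted p being 0.127 in RAS against control (edgeR).

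HOXC and HOXD genes were at or near 0 in RAS/shDOT1L, RAS and control. The 9 HOXC genes had 108 counts in DOT1L OE, against 8 in RAS/shDOT1L, 17 in RAS and 6 in control. HOXC6 (ENSG00000197757; chromosome 12, 53990624 to 54030823) had 15, 11 and 18 counts in DOT1L OE, and 2, 0 and 0 in control, a ratio of 20.7 after scaling (95% exact interval 5.39 to 176, counting error only). HOXC8 had 14, 9 and 5 counts in DOT1L OE, against 0, 0 and 1 in control, a ratio of 26.3 (4.35 to 1080). HOXC4 had 6, 5 and 7 against none, 5.97-fold higher with control set at a floor of 3 counts over the group. HOXC5 had 3, 3 and 1 against none, 2.32-fold higher in the same way. Both folds use library totals without TMM scaling and leave out counting error in DOT1L OE. HOXC4, HOXC5 and HOXC8 were not tested, and the HOXC genes were named after their values were seen. Across genes, replicate libraries differed by more than counting error (chi-square per degree of freedom 4.33 to 7.87). The intervals of HOXC6 and HOXC8 may thus be too narrow. HOXC6 reached at most 0.842 CPM and was not tested under a filter of 1 CPM in 3 libraries, HOXC4, HOXC6 and HOXC9 share exons, and HOXC6 could be tested only through its DOT1L OE libraries. The 9 HOXD genes had 7 counts in all over the 12 libraries, and 6 of them had none.

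The 3 MEIS genes had different orders of levels. MEIS1 (ENSG00000143995; chromosome 2, 66433452 to 66573869, plus strand), the partner of HOXA9 in leukemia, had 26.9, 28.2 and 28.6 CPM in RAS/shDOT1L, 17.0, 19.4 and 18.8 in RAS, 33.1, 34.0 and 29.5 in DOT1L OE, and 39.6, 40.7 and 37.9 in control. The 4 groups did not overlap, and RAS was the lowest. MEIS2 (ENSG00000134138; chromosome 15, 36889204 to 37101299, minus strand), which acts in limb and heart development, had 5.41, 8.09 and 5.80 CPM in RAS/shDOT1L, 3.34, 3.33 and 3.64 in RAS, 1.28, 2.99 and 1.59 in DOT1L OE, and 8.82, 7.22 and 8.09 in control. MEIS3 (ENSG00000105419; chromosome 19, 47403124 to 47419527, minus strand), a hindbrain gene in frogs and fish, had 72.2, 76.0 and 77.4 CPM in RAS/shDOT1L, 73.4, 83.5 and 78.1 in RAS, 32.0, 37.8 and 33.2 in DOT1L OE, and 51.6, 55.4 and 55.3 in control. MEIS2 and MEIS3 were thus lowest in DOT1L OE.

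DOT1L OE was set against control to ask what more DOT1L does without oncogenic RAS. HOXA5 rose 9.97-fold (log2 change 3.32 ± 0.21 SE, adjusted p = 5.92e-15), HOXA3 3.18-fold (1.67 ± 0.23, 1.57e-07), HOXA2 2.48-fold (1.31 ± 0.34, 0.00132) and HOXB6 1.75-fold (0.81 ± 0.12, 3.78e-07; edgeR quasi-likelihood test with Benjamini-Hochberg adjustment here and below). MEIS2 fell 4.07-fold (-2.02 ± 0.26, 3.60e-08), MEIS3 1.57-fold, HOXB8 1.79-fold, HOXB3 1.46-fold, HOXB4 1.25-fold, MEIS1 1.22-fold and HOXB5 1.14-fold, with log2 changes of -0.65, -0.84, -0.54, -0.32, -0.29 and -0.19. HOXA4, HOXA7, HOXB2 and HOXB7 were among those that did not pass. Of the 17 tested genes, 14 reached the filter's 0.53 CPM in all 3 libraries of both groups, while HOXC6 and HOXA4 did so in DOT1L OE alone and HOXA7 in neither. Of the 14, 4 were higher and 7 lower, where 29.9% of all 13660 tested genes were higher and 29.9% lower, and 31.0% and 31.4% of the 12260 that reached the filter in both groups. By over 1.5-fold (glmTreat), 4 of the 14 were higher (HOXA2, HOXA3, HOXA5 and HOXB6) and 1 lower (MEIS2), where 11.2% of all tested genes were higher and 9.58% lower. The median log2 change was -0.24 over the 14 genes and 0.01 over all tested genes. With an offset for transcript GC content, HOXB6 no longer passed the 1.5-fold test (adjusted p = 0.122) and MEIS3 did (0.0386). Of 12 fibroblast markers, 2 were higher and 9 lower. KDR, at 11.6 CPM in DOT1L OE and 0.211 in control, and TEK, at 129 and 67.1, were the endothelial markers tested, both higher. KDR reached the filter in DOT1L OE alone. Of 6 tested epithelial markers, 1 was higher and 3 lower. The part of these markers in the result was not tested. The HOXB8 and MEIS1 calls were lost without DOT1L OE replicate 2 (adjusted p = 0.0638) and replicate 3 (0.0511), and the HOXB5 call without any of control replicate 1, DOT1L OE replicate 1 or 2 (0.134 to 0.166).

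RAS/shDOT1L was set against RAS to ask which changes depend on DOT1L in senescent cells. HOXA5 rose 11.5-fold (log2 change 3.52 ± 0.55 SE, adjusted p = 1.62e-06). MEIS2 rose 1.90-fold (0.92 ± 0.29, 0.00764), HOXB8 1.71-fold (0.78 ± 0.15, 6.08e-05), HOXB3 1.70-fold (0.76 ± 0.12, 1.90e-06), MEIS1 1.54-fold (0.62 ± 0.13, 0.000163) and HOXB6 1.34-fold (0.42 ± 0.11, 0.00143). HOXB4 fell 2.16-fold (-1.11 ± 0.18, 3.24e-06; edgeR). HOXA5 reached the filter's 0.59 CPM in the RAS/shDOT1L libraries alone, HOXA2 and HOXA3 in neither group, and the other 11 of 14 tested genes in all 3 libraries of both groups. Fitted with no filter beyond 1 count, HOXA5 kept a log2 change of 3.51 (adjusted p = 4.52e-10, edgeR). Of the 11, 6 were higher and 1 lower, where 26.3% of all 13398 tested genes were higher and 26.4% lower, and 28.0% and 28.8% of the 11791 that reached the filter in both groups. HOXB4 was lower by over 1.5-fold, where 8.34% of all genes were higher and 8.62% lower. HOXA5 also passed this test, as higher, but reached the filter in RAS/shDOT1L alone and is not set beside these shares. The median log2 change was 0.42 over the 11 genes and 0.03 over all tested genes. The MEIS2 call was lost without RAS/shDOT1L replicate 2 (adjusted p = 0.0757). Changes in this comparison followed GC content. The tenth of genes with the lowest GC had a median log2 change of 0.39 and the tenth with the highest -0.43. With an offset for GC content MEIS2 was no longer called (0.0534), HOXB2 (0.40, 0.000633) and MEIS3 (0.34, 0.000457) were called higher, HOXB3 (0.0208) and HOXB8 (0.00429) passed the 1.5-fold test and HOXB4 did not (0.171). Values that moved with this comparison were HRAS counts, given above, and the epithelial markers, of which 4 of 4 tested (KRT7, KRT8, KRT18 and KRT19) were higher. Of 12 fibroblast markers, 4 were higher and 5 lower, TEK was the 1 of 4 tested endothelial markers that was lower, and HBB was the 1 of 2 tested blood cell markers that was higher. HBB did not reach the filter in every RAS library. The part of these values in the result was not tested.

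RAS was set against control to show HRAS G12V and the senescent state together, which cannot be told apart here. HOXB8 rose 2.79-fold (log2 change 1.48 ± 0.18 SE, adjusted p = 1.95e-08), HOXB6 1.97-fold (0.98 ± 0.13, 5.17e-08), HOXB5 1.55-fold (0.64 ± 0.07, 1.43e-09), MEIS3 1.45-fold (0.53 ± 0.08, 2.31e-07) and HOXB2 1.39-fold (0.48 ± 0.09, 2.50e-05). MEIS1 fell 2.14-fold (-1.10 ± 0.11, 2.14e-10), MEIS2 2.34-fold (-1.23 ± 0.24, 3.85e-05), HOXB3 1.77-fold (-0.82 ± 0.11, 7.00e-08) and HOXB4 1.49-fold (-0.58 ± 0.13, 0.000323). HOXA3 and HOXA5 fell 2.58-fold and 3.83-fold, with adjusted p of 0.0212 and 0.0141 (edgeR). HOXA2, HOXA3 and HOXA5 reached the filter's 0.545 CPM in the control libraries alone, and the other 11 of 14 tested genes in all 3 libraries of both groups. Fitted with no filter beyond 1 count, HOXA3 and HOXA5 had adjusted p of 0.0150 and 0.0216 (edgeR). Of the 11, 5 were higher and 5 lower, where 31.9% of all 13554 tested genes were higher and 32.0% lower, and 33.6% and 33.4% of the 11839 that reached the filter in both groups. By over 1.5-fold, 2 were higher (HOXB6 and HOXB8) and 3 lower (HOXB3, MEIS1 and MEIS2), where 13.4% of all genes were higher and 13.6% lower. The median log2 change was 0.19 over the 11 genes and -0.04 over all tested genes. Scaled by library size alone, the median over all genes moved to -0.24, and 3256 genes were higher and 5573 lower, in place of 4327 and 4343. Changes here followed GC content: the tenth of genes with the lowest GC had a median log2 change of -0.62 and the tenth with the highest 0.58, and with a GC offset MEIS3 (-0.02, adjusted p = 0.842) and HOXB2 (0.08, 0.459) were no longer called. The same offset ended the 1.5-fold calls of MEIS1 (0.180), MEIS2 (0.202) and HOXB6 (0.669), while HOXA3 (0.0297) and HOXB4 (0.00187) passed that test. The HOXA3 call was lost without control replicate 2 (adjusted p = 0.126) or RAS replicate 3 (0.0936), and the HOXA5 call without control replicates 1 or 3 or RAS replicate 2 (0.0550 to 0.0842). Of 12 fibroblast markers, 2 were higher and 9 lower, and 3 of 4 tested epithelial markers were lower, KRT19 at 12.4 CPM in RAS and 115 in control. CLDN5, at 3.63 CPM in RAS and 0.229 in control, and KDR, at 0.997 and 0.211, were higher among 3 tested endothelial markers. Both reached the filter in RAS alone. CD14, at 2.57 and 1.15, was the blood cell marker tested and was higher. The part of these markers in the result was not tested.

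**Figure D3:**
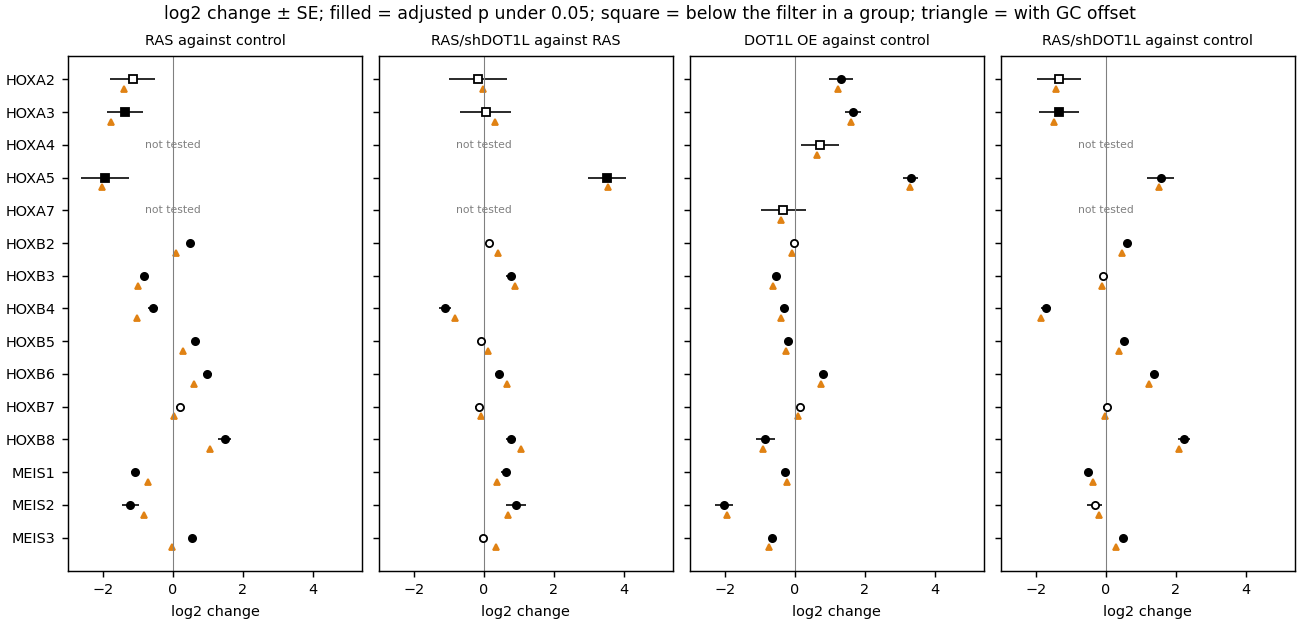
log2 change ± SE of the tested genes shown, in the 4 comparisons (edgeR); squares are genes that did not reach the filter in all 3 libraries of both groups, filled points have an adjusted p under 0.05, open points do not, and triangles are the values with an offset for transcript GC content. HOXA5 stood at 3.52 in RAS/shDOT1L against RAS and 3.32 in DOT1L OE against control, and the offset moved MEIS3 to -0.02 in RAS against control.

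RAS/shDOT1L against control, which shares its libraries with the comparisons above, shows where the cells stood with both changes. HOXB8 was 4.74-fold (log2 change 2.24 ± 0.18 SE), HOXB6 2.61-fold (1.38 ± 0.12), HOXA5 2.97-fold (1.57 ± 0.39), HOXB2 1.54-fold, HOXB5 1.44-fold and MEIS3 1.39-fold higher, and HOXB4 3.25-fold (-1.70 ± 0.15), HOXA3 2.52-fold and MEIS1 1.41-fold lower. HOXA2 and HOXA3 reached the filter's 0.581 CPM in control alone. Of the other 12 tested genes, which reached it in both groups, 6 were higher and 2 lower, where 27.9% of all 13519 tested genes were higher and 27.6% lower, and 29.1% and 29.0% of the 11920 that reached it in both groups. By over 1.5-fold, 3 were higher (HOXA5, HOXB6 and HOXB8) and 1 lower (HOXB4), where 9.44% of all genes were higher and 9.68% lower. HOXB3 (-0.07, adjusted p = 0.571) and MEIS2 (-0.32, 0.233; edgeR), both lower in RAS, did not pass the test. The median log2 change was 0.50 over the 12 genes and -0.01 over all tested genes. Scaled by library size alone, it moved to -0.13 over all genes, and 3037 genes were higher and 4561 lower, in place of 3775 and 3726. The HOXA3 call (adjusted p = 0.0475) was lost without any of 5 of the 6 libraries (0.0691 to 0.209), RAS/shDOT1L replicate 3 being the exception. Of 12 fibroblast markers, 2 were higher and 9 lower, and 3 of 4 tested epithelial markers were higher and 1 lower. Of 3 tested endothelial markers, 2 were higher (CLDN5 and VWF) and 1 lower, and HBB was the 1 of 2 tested blood cell markers that was higher. CLDN5, VWF and HBB reached the filter in RAS/shDOT1L alone. The part of these markers in the result was not tested.

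Group means are set here beside the DOT1L level. The groups also differ in HRAS G12V, vector and drug, so the part of DOT1L in this order cannot be told apart. From the lowest to the highest DOT1L the groups ran RAS/shDOT1L, control, RAS and DOT1L OE. None of the 14 genes tested throughout had group means that rose, or fell, at each step. How many of all genes did so was not counted. HOXA5 stood at 4.25, 1.43, 0.368 and 14.3 CPM in that order of groups, lowest in RAS and higher at either end. The comparisons RAS/shDOT1L against RAS and DOT1L OE against control share no library. HOXA5 and HOXB6 were called higher in both and HOXB4 lower in both, while HOXB3, HOXB8, MEIS1 and MEIS2 were higher in RAS/shDOT1L and lower in DOT1L OE, which makes 4 of the 7 higher in RAS/shDOT1L, where 47.8% of all 3457 genes higher in RAS/shDOT1L and tested in both were lower in DOT1L OE. The 7 include HOXA5, which reached the filter of that comparison in RAS/shDOT1L alone. No HOX or MEIS gene was lower in RAS/shDOT1L and higher in DOT1L OE. Of all 12923 genes tested in both, 12.8% were higher in RAS/shDOT1L and lower in DOT1L OE, 12.4% the reverse, 5.74% higher in both and 6.78% lower in both.

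**Figure D4:**
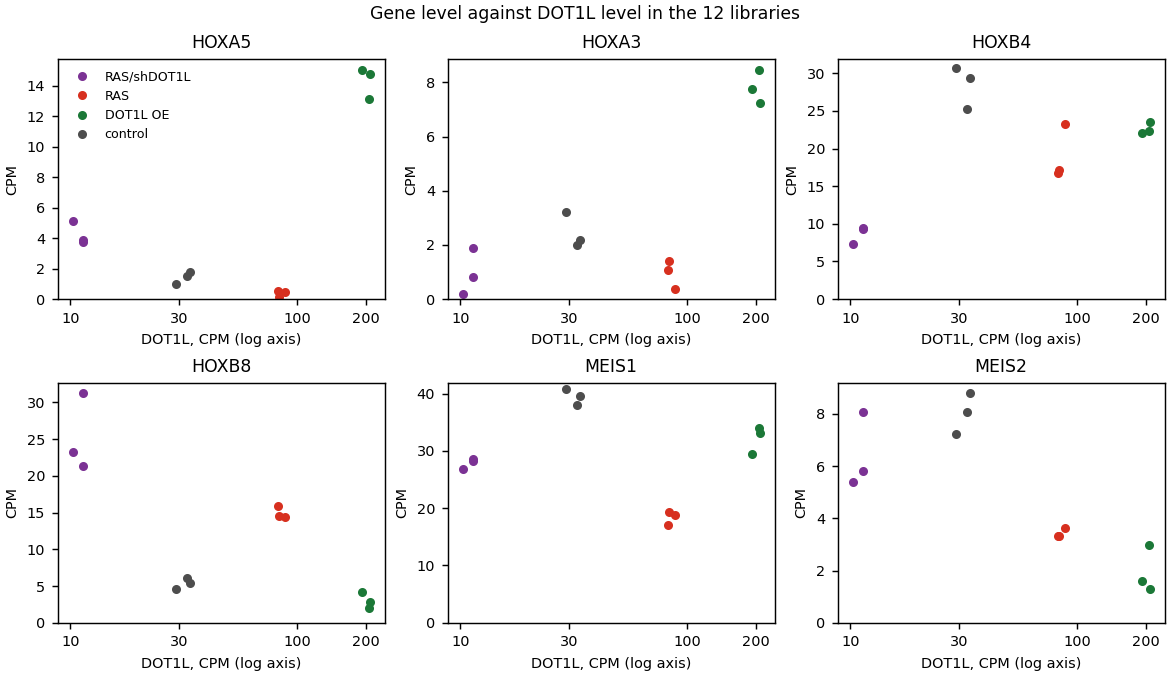
CPM of 6 genes (vertical axes, from 0) against the CPM of DOT1L (log axis) in each of the 12 libraries, coloured by group. HOXA5 was highest in the DOT1L OE libraries, at 13.1 to 15.0 CPM, and at 0.121 to 0.536 CPM in RAS, while HOXB4 was lowest in RAS/shDOT1L, at 7.30 to 9.47 CPM.

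Of 18 noncoding RNAs of the clusters, 9 had no count, where 23194 of all 48162 gene IDs had none. HOXB-AS3, antisense to HOXB3, HOXB5 and HOXB6, averaged 19.8 CPM in RAS/shDOT1L, 11.0 in RAS, 7.50 in DOT1L OE and 17.3 in control, with log2 changes of 0.87 in RAS/shDOT1L against RAS, -1.20 in DOT1L OE against control and -0.66 in RAS against control, all called. HOXA-AS2 had 2 counts in RAS, against 57 in control, a ratio of control over RAS of 24.1 (95% exact interval 6.38 to 204, counting error only and so perhaps too narrow). It reached the filter of that comparison in control alone, and its exons overlap HOXA3, with the strand setting unknown. HOTAIRM1 rose in RAS/shDOT1L against RAS with a log2 change of 0.75 and an adjusted p of 0.0496 (edgeR). The 16 protein-coding genes nearest to the clusters on either side and tested throughout were counted beside all tested genes. They lay 65.2 to 1020 kb from the clusters, and whether their calls relate to position was not tested. In DOT1L OE against control 2 were higher and 12 lower, where 29.9% of all genes were called each way. In RAS/shDOT1L against RAS 10 were higher and 2 lower, where 26.3% and 26.4% of all genes were. In RAS against control 5 were higher and 9 lower, where 31.9% and 32.0% of all genes were, and in RAS/shDOT1L against control 8 were higher and 4 lower, where 27.9% and 27.6% were.

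Partners and regulators of HOX genes were read from lists, whose counts stand beside the shares of all tested genes called: 29.9% each way in DOT1L OE against control, 26.3% higher and 26.4% lower in RAS/shDOT1L against RAS, and 31.9% higher and 32.0% lower in RAS against control. The lists here and below were chosen with earlier results of these data known. Values of their genes carry no GC offset. Of 8 other TALE cofactor genes, 3 were higher and 1 lower in DOT1L OE against control, with a median log2 change of 0.10. TGIF1, a repressor of the same class, rose in RAS (1.56) and in DOT1L OE (1.11) against control and fell in RAS/shDOT1L against RAS (-0.72). Of 12 genes that HOXA9 and MEIS1 drive in leukemia, 6 could be tested in DOT1L OE against control, of which 5 were higher and 1 lower (median log2 change 1.37), with ID2 at 109 CPM in DOT1L OE and 14.5 in control (log2 change 2.91), SOX4 at 224 and 60.3 (1.90) and PIM1 at 21.1 and 11.8 (0.84), while FLT3 had no count in any library. The gene that was lower was CDK6, at 114 CPM in DOT1L OE and 131 in control (log2 change -0.20). BCL2, among those higher, did not reach the filter in every control library. HOXA9 itself was near the limit of detection, and MEIS1 was lower in DOT1L OE than in control. The leukemia list had 1 gene higher and 1 lower of 5 in RAS/shDOT1L against RAS.

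Chromatin regulators that act at HOX clusters were counted in the same way. Of 25 tested genes of the Polycomb complexes and H3K27 demethylases, 11 were higher and 2 lower in DOT1L OE against control (median log2 change 0.24, against 0.01 over all genes), with EZH2, the Polycomb methyltransferase, at a log2 change of 1.98, and 2 higher and 9 lower in RAS/shDOT1L against RAS (-0.27, against 0.03 over all genes), with KDM6B, an H3K27 demethylase, at -0.79. KDM6B rose in RAS against control, at 1.59. The 13 of 25 and 11 of 25 called in either direction are smaller shares than those of all tested genes, 59.9% and 52.7%. Of 20 tested genes of the MLL and DOT1L machinery, DOT1L included, 9 were higher and 2 lower in DOT1L OE against control, and 5 higher and 7 lower in RAS/shDOT1L against RAS. The retinoic acid receptor genes, which act upstream of HOX genes, included RARG, with log2 changes of 0.95 in DOT1L OE against control and -0.57 in RAS/shDOT1L against RAS.

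Another set of position genes, the T-box and FOXF genes of lung mesenchyme, is given beside the HOX genes. All 5 tested genes rose in DOT1L OE against control, 4 fell and none rose in RAS/shDOT1L against RAS, and 4 rose in RAS against control, with median log2 changes of 1.69, -0.90 and 0.69. TBX2 averaged 152 CPM in RAS/shDOT1L, 427 in RAS, 472 in DOT1L OE and 124 in control, with log2 changes of -1.47 in RAS/shDOT1L against RAS and 1.94 in DOT1L OE against control. FOXF1 had log2 changes of -0.82 and 1.49, and TBX3 of -0.90 and 1.75, in the same comparisons. Whether these lists differ from the HOX and MEIS genes was not tested.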

How the data were processed

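Poly(A) RNA was primed with random hexamers and sequenced in paired ends. The authors aligned reads to GRCh38 with STAR and deposited whole-number counts per gene ID without normalization. Processing notes of the submitters list STAR 2.6.1 and DESeq2 2. The strand setting is not given in the sources used here. The sources describe the replicates both as technical and as biological, so the p-values here reflect library-to-library spread that may be technical.

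The 6 libraries of each comparison were fitted alone with the two-sided quasi-likelihood F test of edgeR 4.0.16 (R 4.3.3), after filterByExpr and TMM scaling. Genes were called at a Benjamini-Hochberg adjusted p under 0.05 over all genes tested, and glmTreat tested for changes over 1.5-fold. Levels per kb used merged exons of GENCODE 44, which also gave coordinates. Alternatives were other scalings, filters, DESeq2 1.42.0, limma-voom (limma 3.58.1), 1 fit over all groups, a replicate block, a GC offset (20 bins) and each library left out. Tests were checked on simulated counts.

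Members and lists were chosen with earlier results of these data known. Values in every library are given for HOXA9, HOXA10, the MEIS genes and, per comparison, up to 8 called members with the largest change and at least 2 CPM, and from each list up to 3 genes with the smallest p. The HOXC genes, KRT19, FLT3, CDK6, BCL2, EPCAM, CDH1, CDH5, CD68, ITGAM, PTPRC, HRAS and DOT1L were named outside this rule, after their values were seen. Results of 2 genes are not reported here.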

Additional observations from a re-analysis of the deposited data

How the results depend on the processing

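Of 940 fits of a gene under an alternative, 875 kept the direction and the side of the threshold, 26 lost a call, 12 gained one and 27 changed sign. All sign changes were in genes that were not called in the main fit, except MEIS3 in RAS against control, at -0.020 with the GC offset and -0.021 with the replicate block and GC offset. A fit that changed sign is not counted among the calls lost or gained. MEIS3 in RAS/shDOT1L against RAS was such a fit and was called with the GC offset, at 0.34. In RAS against control, HOXB7 stood at -0.0047 with library size only. In RAS/shDOT1L against RAS, HOXA2 stood at 0.077 with limma-voom, 0.061 with the replicate block and 0.21 with the block and GC offset, HOXA3 at -0.25 with limma-voom and -0.21 with the block, HOXB5 at 0.12 with the GC offset and 0.11 with the block added, and MEIS3 at 0.031 with library size only, 0.34 with the GC offset and 0.34 with the block added. In DOT1L OE against control, HOXA7 stood at 0.15 with limma-voom and 0.023 with the replicate block, and HOXB2 at 0.064 with library size only. In RAS/shDOT1L against control, HOXB7 stood at -0.077 with library size only, -0.026 with the GC offset and -0.025 with the block added.

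Counts here cover all tested HOX and MEIS genes, HOXC6 included. Those over 1.5-fold moved most. RAS against control had 3 genes higher at any size with the GC offset, with or without the block (3 in each), 1 higher by over 1.5-fold with library size only, the GC offset and the block added, and 5 lower with library size only and 1 with DESeq2. RAS/shDOT1L against RAS had 4 higher by over 1.5-fold with the GC offset, with or without the block, and 0 lower with DESeq2, the GC offset and the block added. DOT1L OE against control had 3 higher by over 1.5-fold with DESeq2, limma-voom and the block with GC offset, in place of 5 in the main fit, and 2 lower with the GC offset, with or without the block.

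With each library left out in turn, the genes lower by over 1.5-fold numbered 2 to 5 in RAS against control, 0 to 1 in RAS/shDOT1L against RAS, 1 to 2 in DOT1L OE against control and 1 to 2 in RAS/shDOT1L against control. Those higher numbered 3 to 4 in DOT1L OE against control, so each of these fits fell below the 5 of the main fit. The 5 lower genes in RAS against control were reached without RAS replicate 2, the 0 without RAS replicate 3, the 2 without DOT1L OE replicate 3 and RAS/shDOT1L replicate 3, and the 3 higher genes without control replicate 3 or DOT1L OE replicate 2. In the same fits the log2 change ran from -0.51 to 0.82 for HOXA2 and from -0.88 to 0.52 for HOXA3 in RAS/shDOT1L against RAS, from -0.77 to 1.04 for HOXA7 and from -0.076 to 0.047 for HOXB2 in DOT1L OE against control, and from -0.011 to 0.092 for HOXB7 in RAS/shDOT1L against control. The cause of these changes was not tested. Libraries with the same replicate number did not deviate together (correlations of -0.04 to 0.06 over 18 pairs), so the numbers do not pair them, and the replicate block alone changed no count of called HOX and MEIS genes in any of the 4 comparisons, while over all genes RAS against control had 4211 higher and 4224 lower with it, in place of 4327 and 4343. With the GC offset added, 6 HOX and MEIS genes were lower in RAS against control. Genes with few counts, those of HOXA and HOXC6, had the widest errors, and most HOXC, HOXD and posterior HOX genes were too low to test at this depth.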
